A study of Mus musculus with 12 samples.

Results

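The fibroblast growth factors Fgf1, Fgf2, Fgf5, Fgf7, Fgf10 and Fgf18 and the receptors Fgfr1, Fgfr2, Fgfr3 and Fgfr4 were followed in mouse back skin under 2 topical treatments. Members were the probes whose gene name in the array files equals one of these symbols, which gave 10 of 27373 gene names and 21 of 41174 distinct probes. The skin came from male C57BL/6J mice, 8 weeks old at the start, whose backs were shaved and then received 200 µL per day of a solution. MXD was 3% minoxidil, the positive control, N-CE was a 10% cell extract of the cactus Notocactus ottonis, and VC was the vehicle of propylene glycol, ethanol and water alone. Whole skin was taken at 1W, 2W and 3W, and RNA of 6 mice was pooled per group, so each treatment and week is 1 pool. On each array a treated pool and its VC pool were labelled with Cy3 and Cy5, and a second array took the dyes the other way round. MXD and N-CE of a week therefore share their VC pool.

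Fibroblast growth factors are secreted ligands that bind receptor tyrosine kinases on neighbouring cells, together with heparan sulfate, and signal through adaptor proteins to the MAP kinase cascade. In skin they pass between the dermal and the epithelial cells of the hair follicle. Fgf5 is known as the signal that ends the growth phase of hair, and Fgf18 as a factor of the resting follicle. Fgf7 and Fgf10 are made by mesenchymal cells and act on the epithelial form of Fgfr2.

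A log2 ratio is given as treated over VC, so that positive values mean more signal in treated skin, and each mean is over the 2 arrays of a dye swap with the SD between them. This SD describes the measurement and not the mice. Statements that readings of 2 groups do not overlap rest on technical readings of 1 pool per group. The share of all genes with such separation was not computed. Values of a gene are those of its brightest probe, by mean signal over all arrays. Calls of up- or down-regulation needed an error-model P from the scanner software below 0.01 on each array, equal signs, and a mean fold above 1.5 or below 0.75. A group was taken as above background where the probe was well above background on at least 1 of its 2 arrays. The share of spots well above background was 57.0% to 69.6% per channel. The epidermal list (8 genes, among them Krt5 and Krt14) and the dermal fibroblast list (7 genes, among them Col1a1 and Pdgfra) were above background in full in MXD at 1W and 2W. Fewer cells of a type and less RNA per cell cannot be told apart in such skin. The 2 arrays of a dye swap correlated across genes with r of 0.39, 0.64 and 0.087 in MXD over the weeks and of 0.53, -0.19 and 0.20 in N-CE. The dye swap of N-CE at 2W thus did not repeat across genes.

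Of the 10 genes, 4 calls were made over the 6 comparisons. In MXD at 2W Fgf5 was up-regulated and Fgf18 and Fgfr4 were down-regulated, and in N-CE at 1W Fgf5 was down-regulated. The remaining 4 comparisons had 0 calls in each direction. Above background in both groups were 10, 10 and 9 of the 10 genes in MXD over the weeks and 8, 10 and 9 in N-CE. Among all gene names tested, 6.22% were up-regulated and 10.0% down-regulated in MXD at 2W, and 0.543% and 2.78% in N-CE at 1W. Elsewhere the up-regulated share was 1.26% (MXD, 1W), 0.293% (MXD, 3W), 0.118% (N-CE, 2W) and 0.208% (N-CE, 3W). The down-regulated share was 1.27%, 0.287%, 0.0751% and 0.214% in the same order. Against these shares stand 1 up- and 2 down-regulated of 10 genes in MXD at 2W and 1 down-regulated of 10 in N-CE at 1W, with no test of the difference. The plot of array values by gene shows how the calls stand against the other members.

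**Figure D1:**
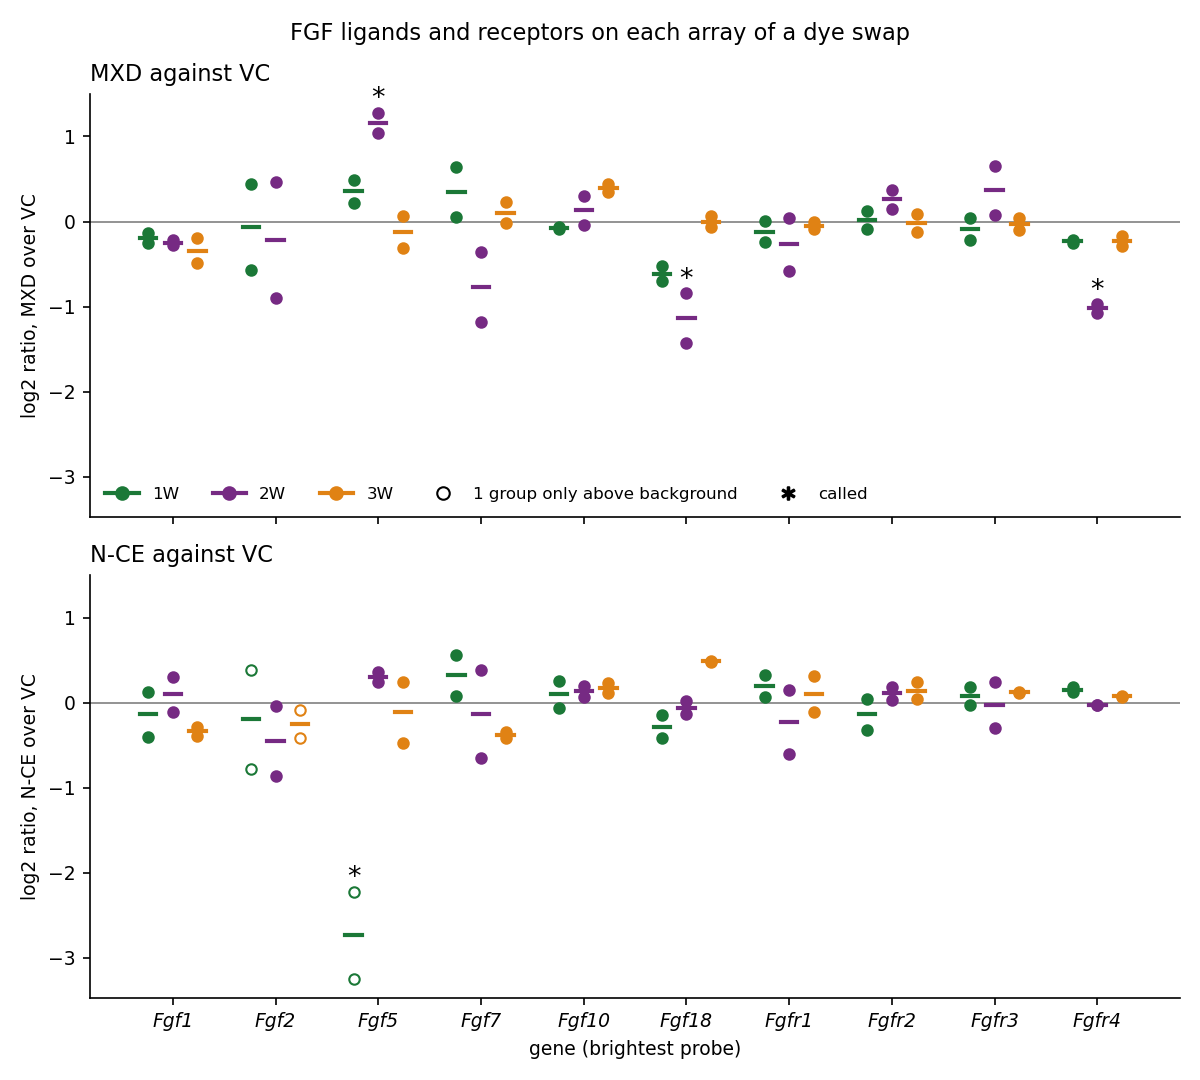
Log2 ratio of treated over VC (y axis) for the brightest probe of each gene (x axis), in MXD (upper panel) and N-CE (lower panel). Points are the 2 arrays of a dye swap, bars their mean, colours the week, open points probes above background in 1 group only, and asterisks the calls; Fgf2 in MXD at 3W is left out, as neither group was above background. Fgf5 in N-CE at 1W lies lowest, at -2.22 and -3.25.

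The probes of the members with calls and those of Fgf2 are shown because the results turn on what they match. Positions are on mm9 and sequences run 5′ to 3′ along the transcript. For Fgf5, Fgf18 and Fgfr4 the last 30 of the 60 bases are given. Capitals in the Fgf5 stretch mark the hexamer AATAAA, the polyadenylation signal, which 1 of the 21 probes holds.
Fgf5, A_52_P569375, chr5:98706010-98706039, plus strand: ttatattcctaaatgctgcAATAAAgaggc
Fgf18, A_51_P249957, chr11:33017441-33017470, minus strand: ttccccccaaaggttctgaaagcaaacaaa
Fgfr4, A_51_P408100, chr13:55270007-55270036, plus strand: aaaggggcatcagctctggtgtccctgaga
Fgfr4, A_52_P686383, chr13:55269255-55269284, plus strand: ctggctgtctctgaagaggtaatgcccatt
Fgfr4, A_52_P144363, chr13:55269390-55269419, plus strand: cttgacctccgcctgacctttggacccttt
Fgf2, A_52_P376768, chr3:37303539-37303598, plus strand: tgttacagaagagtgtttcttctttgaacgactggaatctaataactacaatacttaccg
Fgf2, A_51_P399845, chr3:37247934-37295153, plus strand: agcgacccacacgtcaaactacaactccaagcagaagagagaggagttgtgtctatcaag
The 60 bases of the second Fgf2 probe span 47220 bases of the genome in the array annotation. The array annotation assigns the other Fgfr4 probes to a splice variant of the gene, with starts 752 and 617 bases upstream of the brightest probe.

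Fgf5, the signal that ends hair growth, rose in MXD at 2W. The processed signals of its probe were 3639 and 2843 in MXD against 1766 and 1171 in VC on the same arrays. Both MXD readings were above both VC readings. The log2 ratios were 1.04 and 1.28, with a mean of 1.16 ± 0.17, a fold of 2.24, and P of 3.7e-06 and 5.5e-08. One week earlier MXD gave log2 ratios of 0.49 and 0.22 for Fgf5, which was not called. One week later the arrays gave 0.07 and -0.31, on either side of 0.

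In N-CE at 1W Fgf5 was down-regulated, with log2 ratios of -2.22 and -3.25. Its processed signal was 26.6 and 15.2 in N-CE against 124 and 145 in VC, and N-CE was not well above background on either array. The fold is therefore a bound, at least 1.72-fold lower, with group means of 6.50 in N-CE and 7.29 in VC on the normalized log2 scale. This scale uses normexp for the background, loess within arrays and quantiles between them, and gave a log2 ratio of -0.79. Fgf5 was not called in N-CE at later weeks, with log2 ratios of 0.24 and 0.37 at 2W. Those of 3W, 0.24 and -0.47, differed in sign. The same VC pool of 1W gave 157 and 170 for Fgf5 on the MXD arrays, above its 124 and 145 on the N-CE arrays.

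The Fgf5 signal of the vehicle pools covered a wider range over the weeks than the 3 pools did within 2W or 3W. On the normalized log2 scale the 4 readings of each VC pool averaged 7.31 ± 0.05, 9.43 ± 0.17 and 10.08 ± 0.36 from 1W to 3W. MXD was at 7.58, 10.56 and 9.93 and N-CE at 6.50, 9.60 and 10.02. The order at 2W was MXD above N-CE above VC, and N-CE and VC differed by no more than 1 SD of the VC readings. At 3W the 3 pools lay within the SD of the VC readings. Each week has its own slide and scan, so week and slide cannot be told apart. The plot of signal by week gives these levels beside those of Fgf18, Fgf7 and Fgfr4.

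**Figure D2:**
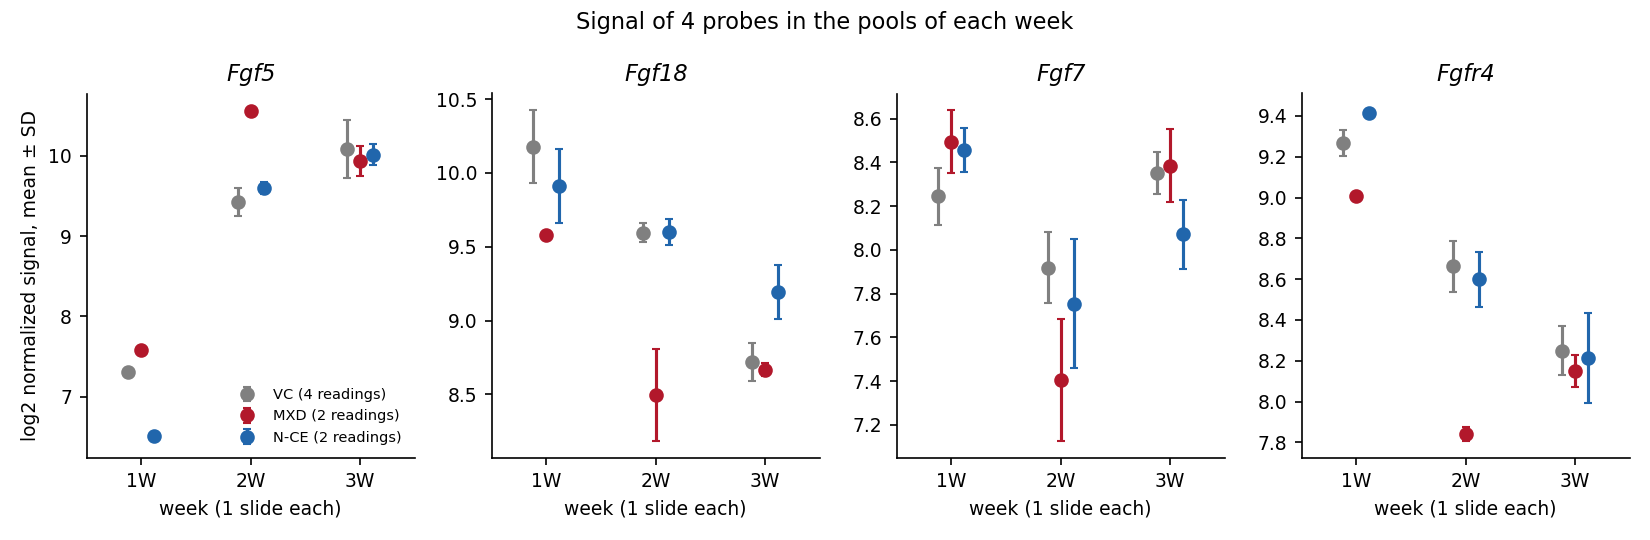
Normalized log2 signal (y axis, scale differs between panels) of the brightest probes of Fgf5, Fgf18, Fgf7 and Fgfr4 in the pools of each week (x axis), as mean and SD over 4 readings of VC and 2 of MXD and N-CE. Fgf5 in VC lies at 7.31, 9.43 and 10.08 at 1W, 2W and 3W, whereas Fgf18 in VC lies at 10.18, 9.60 and 8.72.

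Fgf18, the factor of the resting follicle, fell in MXD at 2W. Its processed signal was 579 and 682 in MXD against 1554 and 1225 in VC. Neither MXD reading reached the lower VC reading. The log2 ratios were -1.42 and -0.84, with a mean of -1.13 ± 0.41 and P of 4.4e-09 and 0.00011. At 1W the Fgf18 probe in MXD gave -0.53 and -0.70, a fold of 0.655 that passed the limit on size, but a P of 0.012 on 1 array kept it from being called. At 3W the arrays gave 0.06 and -0.07.

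In N-CE Fgf18 was not called at any week. Its log2 ratios in N-CE were -0.15 and -0.41, then -0.14 and 0.03, then 0.49 and 0.48. The value of 3W, 0.49 ± 0.004, repeated closely between arrays, and its fold of 1.40 was under the limit. On the normalized log2 scale Fgf18 in VC was at 10.18 ± 0.25, 9.60 ± 0.06 and 8.72 ± 0.13 over the weeks, the opposite order to Fgf5. The genes whose 6 comparison means followed the pattern of Fgf18 most closely were Rhbdl3, Panx3 and Mfsd7a. Their Pearson r was 0.993, 0.992 and 0.985 over 6 comparisons. They were the first 3 of 23239 probes above background in both groups throughout. This r compares pattern and not size. In MXD at 2W the 3 genes had means of -0.36, -0.72 and -0.22, against -1.13 for Fgf18. The r is a description, as comparisons of a week share a VC pool and slide.

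Fgf7, the keratinocyte growth factor of the dermis, was not called in any of the 6 comparisons. Its MXD arrays at 2W gave -1.18 and -0.36, and the second, with a P of 0.094, left it uncalled. The processed signals were 231 and 268 in MXD and 522 and 343 in VC. These readings did not overlap, but the share of all genes with such separation was not computed. In MXD and N-CE at 1W the means were 0.35 ± 0.41 and 0.32 ± 0.34, values no larger than the spread between arrays. In N-CE at 3W the mean was -0.38 ± 0.05.

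Fgf10, the other mesenchymal ligand of Fgfr2, had means between -0.08 and 0.39 in the 6 comparisons and 0 calls. Its probe was printed 10 times on each array, and the SD over copies was 0.055 to 0.16. The SD between the arrays of a dye swap was 0.023 to 0.24. The highest value was that of MXD at 3W, 0.34 and 0.44 on the 2 arrays. All 224 readings of its copies were well above background.

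Fgf1, the acidic factor that binds all 4 receptors, was above background in 24 of 24 channels on its brighter probe. Its means lay between -0.34 and 0.10, and 0 of them were called. The 2 values of 3W, -0.34 ± 0.21 in MXD and -0.34 ± 0.07 in N-CE, are set against the same VC pool. The other Fgf1 probe was above background in 7 of 24 channels.

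Fgf2, the basic factor, could hardly be measured. The probe A_52_P376768 was above background in 10 of 24 channels and the probe A_51_P399845 in 2 of 24. On the first, the arrays of a dye swap differed in sign in 4 of 6 comparisons, for example with -0.57 and 0.44 in MXD at 1W. Of the copies of A_51_P399845, 42 of 222 readings were well above background, and 0 copies had a P under 0.01 on any array. Its median over copies ranged from -1.13 to 0.99 between arrays, and the SD over copies reached 0.74. In N-CE at 1W A_52_P376768 gave -0.78 and 0.39 and A_51_P399845 gave 1.00 and -0.39. There N-CE was above background on 0 arrays for either probe. No change of Fgf2 was detectable at this signal.

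Of the 4 receptors, Fgfr4 alone was called, in MXD at 2W. It is the receptor that works with beta-Klotho for endocrine ligands. Its brightest probe gave processed signals of 419 and 343 in MXD at 2W against 819 and 724 in VC, with no overlap. The log2 ratios were -0.97 and -1.08, a mean of -1.02 ± 0.08, with P of 1.5e-05 and 2.5e-06. The other MXD means, -0.23 ± 0.02 for 1W and -0.23 ± 0.09 for 3W, were not called. In N-CE the means were 0.15 ± 0.04, -0.03 ± 0.003 and 0.07 ± 0.01.

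The Fgfr4 probes differed in the size of their ratios. For MXD at 2W A_52_P686383 gave -0.20 and -0.71. Its fold of 0.729 passed the limit on size, but a P of 0.35 on 1 array kept it from being called. A_52_P144363 gave 0.26 and -0.49, a mean of -0.12, and was not called. Both of these probes were above background in 24 of 24 channels, with mean processed signals of 170 and 108. The mean over the 3 Fgfr4 probes was -0.53. Fgfr4 is thus called on its brightest probe, and not on the dimmer probes that the array annotation assigns to a splice variant. A difference between transcript forms was not tested. The genes closest in pattern to the brightest Fgfr4 probe over the 6 comparisons were Lgi4, Aqp4 and Myom2, the last a protein of the muscle sarcomere. Their r was 0.998, 0.997 and 0.996 among 23237 probes.

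Fgfr1, the receptor of mesenchymal cells, had means between -0.27 and 0.19 and 0 calls. Its MXD arrays at 2W gave 0.04 and -0.58 and in N-CE at 2W 0.15 and -0.61, a like split in both dye swaps. The overlapping probe A_51_P109469 gave 0.13 and -0.64 in MXD at 2W and 0.14 and -0.51 in N-CE at 2W. These 2 Fgfr1 probes share 39 bases with 1 difference. All 4 Fgfr1 probes had negative means in MXD at 2W, from -0.56 to -0.25.

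Fgfr2, the receptor of Fgf7 and Fgf10, had means between -0.14 and 0.26 on its brightest probe, and 0.20 on a probe printed 10 times against 0.26 in MXD at 2W. A further Fgfr2 probe was above background in 13 of 24 channels. Fgfr3, a receptor of epithelial cells, had means between -0.09 and 0.37. The value of MXD at 2W rested on 0.65 on 1 array and 0.08 on the other. An overlapping Fgfr3 probe, which shares 37 bases with 1 difference, gave 0.67 and 0.27. The first 30 of the 37 shared bases, chr5:34078922-34078951 on the plus strand, are shown with the differing base in capitals, since the pair serves as a check of a probe on itself.
Fgfr3, A_51_P322906: ggcaTggcagttttgtttgtactggacctg
Fgfr3, A_52_P506516: ggcaCggcagttttgtttgtactggacctg
In the plot of all probes of MXD at 2W the paired probes lie close together, whereas those of Fgfr4 do not.

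**Figure D3:**
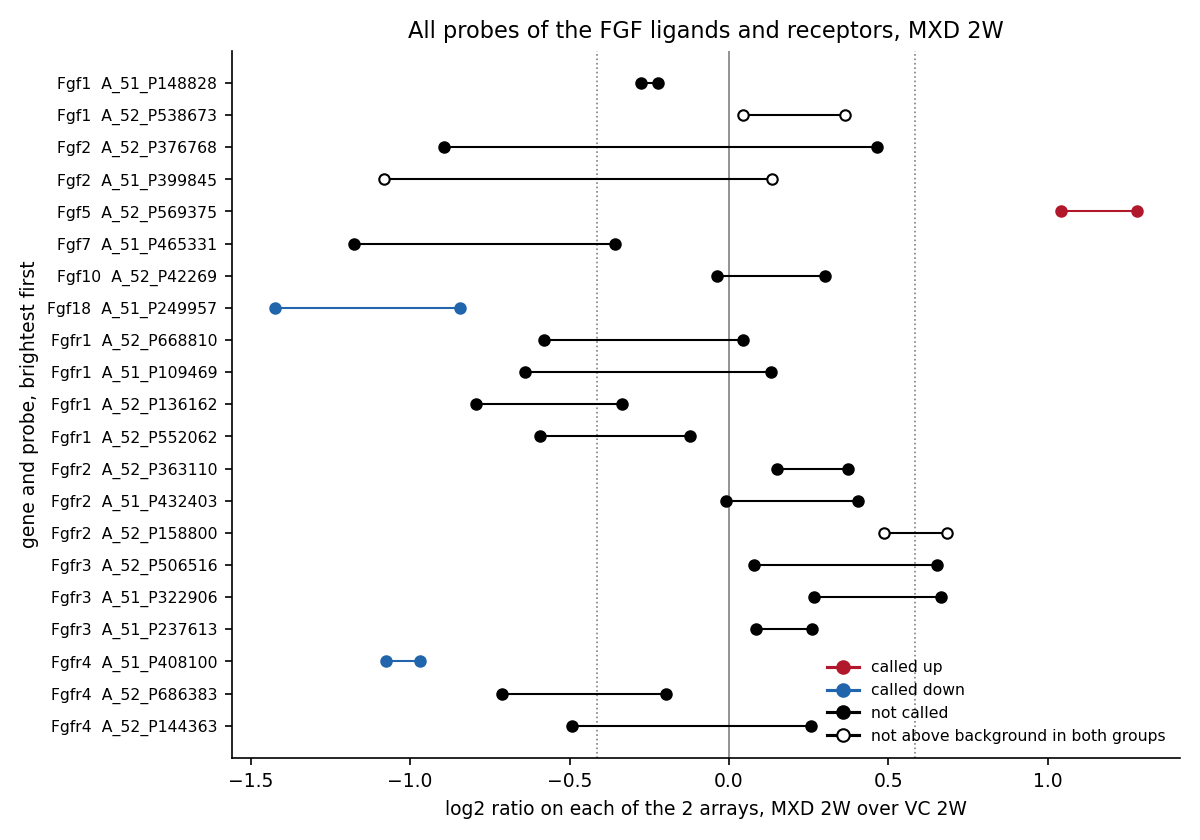
Log2 ratio of MXD over VC at 2W (x axis) on the 2 arrays, joined by a line, for each of the 21 probes (y axis, the brightest of a gene first). Dotted lines mark the fold limits of 0.75 and 1.5, colours the calls and open points probes not above background in both groups. The 3 called probes, for Fgf5, Fgf18 and Fgfr4, lie beyond the limits on both arrays, and 2 other Fgfr4 probes are not called.

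MXD and N-CE were then compared through the VC pool of their week. For Fgf5 the log2 ratio in MXD exceeded that in N-CE by 3.09 ± 0.75 at 1W, where the means were 0.35 and -2.73. The excess was 0.86 ± 0.19 at 2W, where they were 1.16 and 0.30, and -0.01 ± 0.57 at 3W. The value of 1W takes a signal not well above background as measured, and the normexp ratios there were 0.25 in MXD and -0.79 in N-CE. For Fgf18 the difference was -0.33 ± 0.22, -1.08 ± 0.43 and -0.49 ± 0.09 over the weeks. For Fgfr4 it was -0.39 ± 0.05, -0.997 ± 0.08 and -0.31 ± 0.09. The arrays of the 2 treatments did not overlap for Fgf18 and Fgfr4 at any week. They also did not overlap for Fgf5 at 1W and 2W, Fgf1 at 2W and Fgfr1 at 1W. At 3W the same held for Fgf7, Fgf10 and Fgfr3. It also held for Fgf2 at 3W, but neither group was above background on the MXD arrays and only VC on the N-CE arrays. The Fgf2 ratios there are thus no measure of a difference. The share over all genes was not computed, so the lack of overlap is not a result about single members.

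The weeks were the sole replicates for a test across samples. With limma's moderated test and Benjamini-Hochberg adjustment over all probes, few values enter per probe. An adjusted p under 0.05 was reached by 0% of 25228 probes in MXD, 0% of 26023 in N-CE and 0% of 24647 between them. The test asks for a mean change over the 3 weeks, so it does not decide on a change in 1 week only. At an unadjusted p under 0.05 there were 2603, 519 and 1776 probes. For Fgf18 the mean of MXD minus N-CE over weeks was -0.63 with an SE of 0.18 and a limma adjusted p of 0.67. For Fgfr4 it was -0.56 with an SE of 0.18 and a limma adjusted p of 0.67. For Fgf5 it was 1.31 with an SE of 0.54 and a limma adjusted p of 0.67, a mean that takes the N-CE reading of 1W, not above background, at its measured ratio. In MXD alone Fgf18 had -0.58 with an SE of 0.23 and Fgfr4 -0.50 with an SE of 0.19, each with a limma adjusted p of 0.48. With normexp and loess this Fgf5 mean was 0.59 with a limma adjusted p of 0.65, and without 1W it was 0.43 with a limma adjusted p of 1.00. Without 3W it was 1.97 with a limma adjusted p of 0.048, when 1175 probes passed, and that mean too holds the reading of 1W.

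Of 66 other genes of the FGF pathway, 65 were on the array and 53 to 56 were measured. In MXD at 2W 6 of 55 (10.9%) rose and 3 of 55 (5.45%) fell. Among all gene names tested 6.22% rose and 10.0% fell, and the difference was not tested. The median log2 ratio was 0.16 over the pathway genes above background in at least 1 group. It was 0.02 over the 17469 gene names above background in both groups, so the 2 sets were not chosen alike. Among other ligands, Fgf9 fell by 1.65 on the log2 scale and Fgf13, which acts inside the cell, had -1.25 ± 0.78. Fgf21, an endocrine ligand, rose by 1.32 ± 0.30. Normexp and loess gave -0.73 for Fgf9 and 0.44 for Fgf21. Among targets of FGF signalling, Etv4, a transcription factor of the ETS family, rose by 0.99 ± 0.21. The other called genes were Fgf22, Flrt3, Braf and Egr1, which rose by 0.81 to 0.96, and Klb, the beta-Klotho gene, which had -0.81 ± 0.17; these were named after their values were seen, as their number is small.

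Of 17 signal transducers measured in MXD at 2W, 14 were above 0 and 1 was called, with a median of 0.17. Of 17 coreceptors and binding proteins, 1 rose and 1 fell. Of 12 targets and feedback genes 2 rose and 0 fell. Among all gene names tested 6.22% rose and 10.0% fell, and no list was tested against these shares. In the plot of pathway genes the called ones are Fgf21, Fgf22, Flrt3, Braf, Etv4 and Egr1 above 0 and Fgf9, Fgf13 and Klb below.

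**Figure D4:**
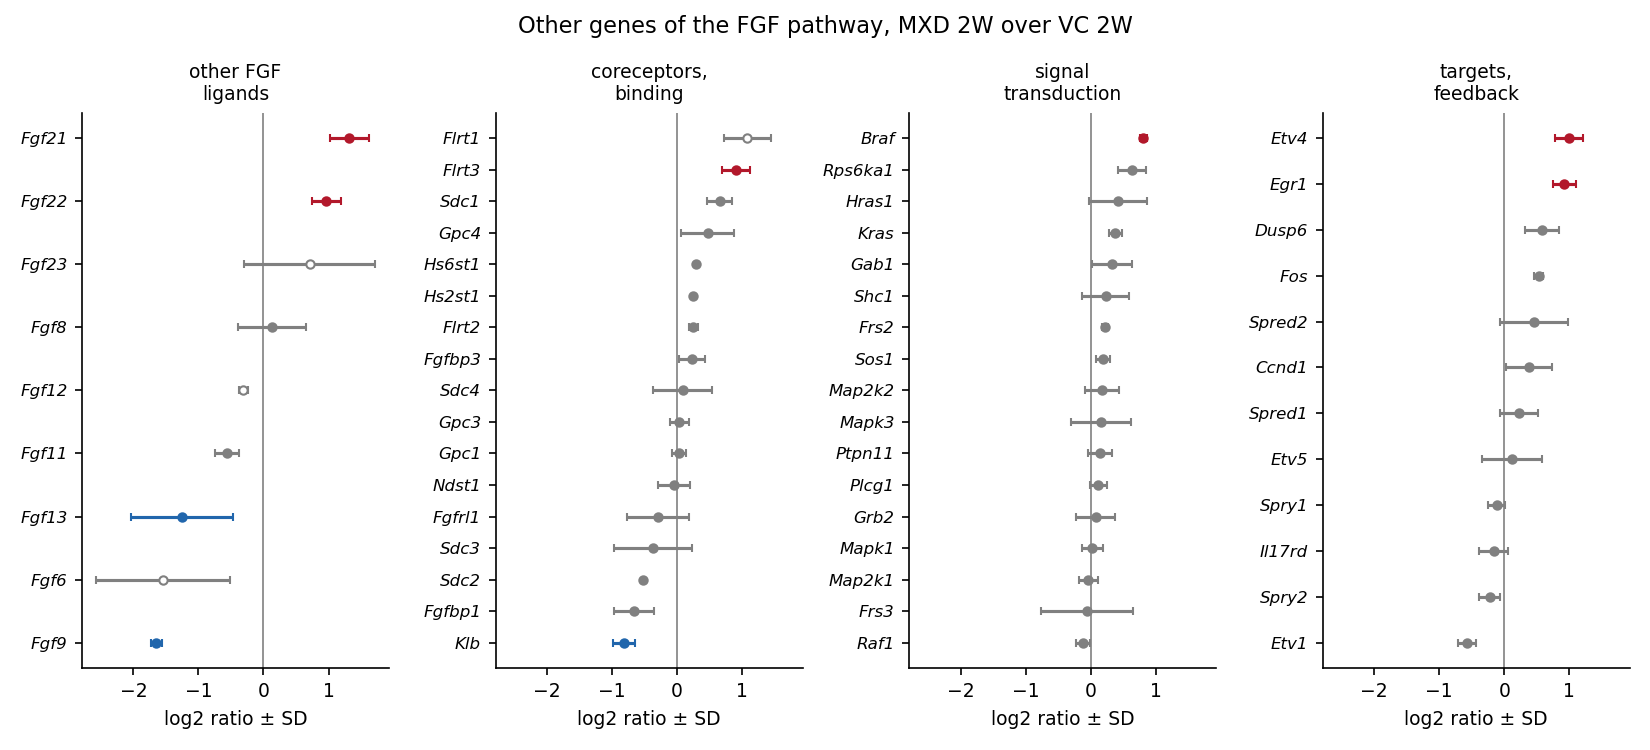
Mean log2 ratio of MXD over VC at 2W (x axis) with the SD between 2 arrays for the measured pathway genes (y axis) by role, 9 other ligands, 17 coreceptors and binding proteins, 17 signal transducers and 12 targets and feedback genes. Red marks up-regulated, blue down-regulated and grey uncalled genes, and open points those above background in 1 group only; Fgf9 lies lowest at -1.65.

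In N-CE at 1W 1 of 55 pathway genes (1.82%) rose and 1 (1.82%) fell, against 0.543% and 2.78% of all gene names tested. Fos, the immediate early gene, rose by 1.41 ± 0.06 and Etv4 had -1.08 ± 0.21, the opposite call to that in MXD at 2W. Etv4 had 0.44 ± 0.05 in MXD at 1W. At 2W Fos was the single call among 55 (1.82%), and 0 fell, against 0.118% and 0.0751% of all gene names up and down. MXD at 1W and 3W and N-CE at 3W had 0 calls among 56, 53 and 55. There at most 1.27% of all gene names were called in a direction.

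Markers of other skin cells moved in the comparisons with called members, and some also where 0 members were called. In MXD at 2W 12 of 12 hair shaft and matrix genes rose, with a median of 1.29 and summed processed signals of 643374 to 758386 in MXD and 273212 to 283712 in VC. In N-CE at 1W 12 of 12 fell, with a median of -2.35 and sums of 14766 to 18353 against 89081 to 91487. Melanocyte genes rose in 7 of 7 cases in MXD at 2W and fell in 5 of 7 in N-CE at 1W, with Tyr below background in both groups. Their sums were 83644 to 95535 against 33115 to 45670 in the former and 7000 to 7021 against 18950 to 20826 in the latter. Fgf5 was called in the same direction as these lists in both comparisons. With 0 members called, hair genes rose in 3 of 12 cases and melanocyte genes in 4 of 7 in MXD at 1W. Melanocyte genes also rose in 5 of 7 cases in MXD at 3W and in 1 of 7 in N-CE at each of 2W and 3W.

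Skeletal muscle genes in MXD at 2W fell in 8 of 8 cases, in 6 of 8 in MXD at 1W, in 2 of 8 in MXD at 3W and in 1 of 8 in N-CE at 2W. Their median at 2W was -1.46, with sums of 154115 to 286915 against 515886 to 632767. Adipocyte genes fell in 5 of 7, dermal fibroblast genes in 3 of 7 and endothelial genes in 3 of 7. Bulge stem cell genes rose in 3 and fell in 2 of 7, dermal papilla genes rose in 2 of 9, with Sox2 below background, epidermal genes rose in 1 and fell in 3 of 8, and immune genes rose in 1 and fell in 1 of 7. In N-CE at 1W muscle, adipocyte, fibroblast, endothelial and epidermal genes had 0 calls, immune genes 1 rise, bulge genes 2 falls and dermal papilla genes 3 falls, with Rspo3 and Sox2 below background. The part of these lists in the values of Fgf5, Fgf18 and Fgfr4 was not tested.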

How the data were processed

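Arrays of 12 hybridizations were scanned and read by the authors in Agilent Feature Extraction, version 11.0.1.1 in the submitters' notes and 12.0.3.1 in the file headers. The deposited log ratio is log10 of Cy5 over Cy3 after background subtraction and dye normalization by the authors. The deposited p-value is the error model's, per spot, and does not describe mice. The deposited signal intensity is given raw and processed. The authors' matrix holds log10 ratios of processed signals, within 5e-09 of the scanner files.

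Control and outlier spots were left out, all ratios were set as treated against VC on the log2 scale, and spots of a probe and arrays of a dye swap were averaged. Calls used the thresholds of the methods. As each group is 1 pool, no test is possible within a week, so limma 3.58.1 (R 4.3.3) was run over the 3 weekly values, on probes above background in at least 1 group in every week. The rule for named genes took all members and the 4 largest called pathway genes per comparison. It added the 3 genes of highest Pearson r to each called member that was above background throughout. Members and lists were chosen with earlier results of these data known. Steps were tested on simulated data. Python 3.11.15, numpy 2.4.6, pandas 2.3.3 and matplotlib 3.10.9 were used. Alternatives covered normexp (offset of 50) with loess and quantile normalization of average intensities, no P, symmetric folds, both groups above background, outlier spots kept, other probes, the matrix and each array or week left out. No depth applies to arrays, whose number, 12, limits the precision.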

Additional observations from a re-analysis of the deposited data

Results flagged for a closer look

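Opposite signs in MXD and N-CE on all arrays of a week were looked for in the 10 members and the largest called pathway genes over 3 weeks. They were seen for a few genes, and none of these differences was tested within the week. The share of all genes with such signs was not computed, so it is open whether the members stand out. At 1W Fgf5 was higher than VC in MXD and lower in N-CE, a difference in log2 ratio of 3.09. N-CE was not well above background there, so that this value is not exact, and the normexp ratios were 0.25 in MXD and -0.79 in N-CE. Fgfr4 was lower than VC in MXD and higher in N-CE at 1W, with a difference of -0.39, and at 3W, with -0.31, and was called in neither. Among other pathway genes at 1W, Etv4 was higher in MXD and lower in N-CE, with a difference of 1.51, and Fgf13 was lower in MXD and higher in N-CE, with -0.83. Both treatments were set against the same VC pool of their week.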

How the results depend on the processing

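Of 108 counts of called members under alternatives, 100 stayed within 1.5 times the main count. Most main counts were 0, and a 0 that stayed 0 is among the 100, so this says little about the called members. The 4 called log2 ratios kept their sign in all 27 of their alternatives, and 30 of 380 for uncalled members turned sign. A call already needs equal signs on both arrays, so leaving out an array could not turn it. The 2 counts are therefore not a test of the calls. Over the alternatives Fgf5 in MXD at 2W lay between 1.03 and 1.28, Fgf18 between -1.42 and -0.84, Fgfr4 between -1.08 and -0.53, and Fgf5 in N-CE at 1W between -3.25 and -0.79. Without the P, the down-regulated members were 3 in MXD at 2W (Fgf7 added), 1 in MXD at 1W (Fgf18) and 1 in N-CE at 2W (Fgf2), and the pathway genes were 4 down in MXD at 1W, 8 down in MXD at 2W, 2 down in MXD at 3W, 3 up and 4 down in N-CE at 1W, 2 up and 2 down in N-CE at 2W and 4 down in N-CE at 3W. Without the P, the gene names down among all tested were 1188 of 18549, 3888 of 18751 and 426 of 17415 in MXD over the weeks. In N-CE they were 1400 of 18235, 413 of 18643 and 763 of 18718, and those up at 1W and 2W were 307 and 183. Where both groups had to be above background, 0 members were down in N-CE at 1W, since Fgf5 was left out by construction. With any probe, 2 pathway genes were down in N-CE at 1W. On 1 array of the dye swap alone, members up in MXD at 1W were 0 to 1 (Fgf7 on the second array), down in MXD at 1W 0 to 1 (Fgf18 on the second), up in MXD at 2W 1 to 2 (Fgfr3 added on the first) and down in N-CE at 2W 1 to 1 (Fgf7 on the first, Fgfr1 on the second). Members down in MXD at 2W were 3 on each array alone (Fgf7 added on the first, Fgfr1 on the second). Of all gene names there, 2411 of 18435 were up and 3042 down on the first array, and 1894 and 2878 of 17776 on the second. In MXD at 1W these were 528 and 497 of 17902 on the first and 467 and 660 of 18160 on the second. In N-CE at 2W 267 of 17776 and 385 of 18263 were down. The members were not tested against these shares. In the limma fit over weeks, leaving out weeks gave 0 to 1 members and 0 to 1175 probes called for MXD minus N-CE, the upper values without 3W. The mean of Fgf2 in N-CE, -0.30, became 0.044 with normexp and loess; the cause was not tested. With the week as a random block 0 members were called in each contrast. Signal over background limits Fgf2, the second Fgf1 probe and Fgf5 in N-CE at 1W.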
